A study of Mus musculus with 4 samples.

Results

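Interferon-high alveolar type I (AT1) cells are described here as 422 of the 2940 cells in a library of sorted AT1 cells at postnatal day 15 (P15), or 422 of the 9519 cells of the series. AT1 cells are flat and thin, and oxygen reaches the blood through them. A cell was eligible when it had at least 3000 unique molecular identifiers (UMIs, the molecules counted per cell) and an unlogged level of Ager, the most abundant AT1 transcript on the marker list, of at least 165.1 per 10000 UMIs, which is 0.5 times the median of the library. Of the 2940 cells, 631 had too few UMIs, another 199 were under the Ager minimum and 2110 were eligible. The members were chosen by measured values: the eligible cells were ordered by a score, the sum of the levels of Ifit1, Ifit3 and Isg15 per 10000 UMIs. The 20% with the highest score were the 422 interferon-high cells, 1468 cells (69.6%) lay between, and 220 cells (10.4%) had no UMI of any of the 3 genes and were the interferon-zero cells. The 3 genes are called the rule genes below, and the classes are also called high, between and zero cells.

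Interferons are secreted proteins that warn cells of viruses. They bind receptors at the surface, whose JAK kinases activate transcription factors, and a complex of these with IRF9 binds a short element in front of a large set of interferon-stimulated genes. Many of those genes code for proteins that block a step of viral growth, and others code for parts of the pathway itself or for brakes on it. Ifit1 and Ifit3 code for proteins of a family that binds viral RNA and acts in complexes, and Isg15 codes for a ubiquitin-like protein that is attached to other proteins.

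The P15 cells came from mice (FVB and C57BL6 mixed) with the alleles Sftpc-CreER, Rosa26-Zsgreen and Hopx-RFP that had been injected with tamoxifen, so that Sftpc-expressing cells and their descendants could be green. They were sorted as RFP+ Pdpn+ GFP- CD45- cells after digestion of the lung with elastase, neutral protease, DNase I and type I collagenase. The AT1 libraries at day 3 (P3) and day 60 (P60) were made from the same kind of mice with the same gate, and a library of alveolar type II (AT2) cells at P60 was sorted as GFP+ CD45- cells from the same kind of mice, whose lungs were digested without elastase and collagenase. Each group is 1 library, and how many mice it pools was not learned from the labels. All classes compared below are cells of 1 library, cells are not replicates, and no test was run. Ratios are of CPM, the UMIs of a gene summed over the cells of a class and scaled to a total of 1000000, and their 95% intervals, like those of shares, cover counting error only.

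The 3 rule genes lie on 2 chromosomes of the mouse assembly mm10. Ifit1 occupies chr19:34640871-34650009 and Ifit3 chr19:34583531-34588731, both on the plus strand, and Isg15 occupies chr4:156199424-156200818 on the minus strand. The promoter windows of the rule genes, of Bst2 and of Oasl2 are printed because they hold, or do not hold, the letters of the element bound by the complex with IRF9. Each window is the 250 bases before the RefSeq gene start in GRCm38.p6, written 5′ to 3′ on the strand of the gene, and capitals mark each match of GAAANNGAAA on that strand or, as TTTCNNTTTC, on the other.
Ifit1 (chr19:34640639-34640888, plus strand): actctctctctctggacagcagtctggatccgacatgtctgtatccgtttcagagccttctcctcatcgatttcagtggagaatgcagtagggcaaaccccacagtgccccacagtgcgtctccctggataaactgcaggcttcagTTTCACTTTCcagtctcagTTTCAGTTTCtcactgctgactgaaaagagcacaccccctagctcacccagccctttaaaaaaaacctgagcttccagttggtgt
Ifit3 (chr19:34583279-34583528, plus strand): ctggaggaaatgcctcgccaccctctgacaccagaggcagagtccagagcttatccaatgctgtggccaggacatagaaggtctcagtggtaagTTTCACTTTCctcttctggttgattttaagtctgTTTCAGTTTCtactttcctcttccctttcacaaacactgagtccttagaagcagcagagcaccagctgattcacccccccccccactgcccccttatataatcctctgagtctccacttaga
Isg15 (chr4:156200819-156201068, minus strand): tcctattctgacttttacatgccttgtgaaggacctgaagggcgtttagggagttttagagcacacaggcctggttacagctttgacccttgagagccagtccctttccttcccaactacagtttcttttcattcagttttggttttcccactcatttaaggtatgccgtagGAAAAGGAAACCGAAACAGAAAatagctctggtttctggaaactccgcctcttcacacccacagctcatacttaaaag
Bst2 (chr8:71537473-71537722, minus strand): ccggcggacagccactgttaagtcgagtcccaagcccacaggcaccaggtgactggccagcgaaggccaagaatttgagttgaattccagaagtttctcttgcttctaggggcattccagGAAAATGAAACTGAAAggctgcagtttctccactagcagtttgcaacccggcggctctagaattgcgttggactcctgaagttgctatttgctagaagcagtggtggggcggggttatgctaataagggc
Oasl2 (chr5:114896684-114896933, plus strand): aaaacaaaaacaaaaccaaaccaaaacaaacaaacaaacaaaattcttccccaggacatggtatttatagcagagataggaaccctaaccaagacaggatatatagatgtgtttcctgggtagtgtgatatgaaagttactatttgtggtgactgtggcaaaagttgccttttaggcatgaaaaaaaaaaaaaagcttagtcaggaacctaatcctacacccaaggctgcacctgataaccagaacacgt

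All 3 rule genes held the motif, against 3.46% of the 27025 genes with a window. Matches lay 75 and 94 bases before the start in Ifit1, 112 and 146 bases in Ifit3, and 56 to 68 bases in Isg15, where 3 matches overlapped. The shorter form AANNGAAA, which every match of the longer one contains on the same strand, was in 23.9% of the 27025 genes. A match describes letters in this window and shows no binding.

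Since the rule chose the cells by the rule genes, the levels of those genes are a description. Ifit3 had 1169 CPM in interferon-high cells, 435 CPM in the cells between and 0 in interferon-zero cells. Isg15 had 411 CPM in interferon-high cells and 80.4 CPM in the cells between, and Ifit1 had 270 CPM in interferon-high cells and 80.1 CPM in the cells between. Ifit3 gave 63.2% of the 3 genes' UMIs in interferon-high cells and 73.1% in the cells between, while Isg15 gave 22.2% in interferon-high cells and 13.5% in the cells between. An interferon-high cell held a median of 7 UMIs of Ifit3, 1 of Ifit1 and 1 of Isg15, and 416 of the 422 cells had a UMI of Ifit3. The score had a median of 16.3 per 10000 UMIs in interferon-high cells, with a highest value of 88.4. The lowest score inside the class was 12.22 and the highest outside it was 12.21, and 155 eligible cells lay within 1 of the limit. The class is a range of the score, set by a fixed share of cells, and these values do not bear on whether a separate type exists.

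**Figure D1:**
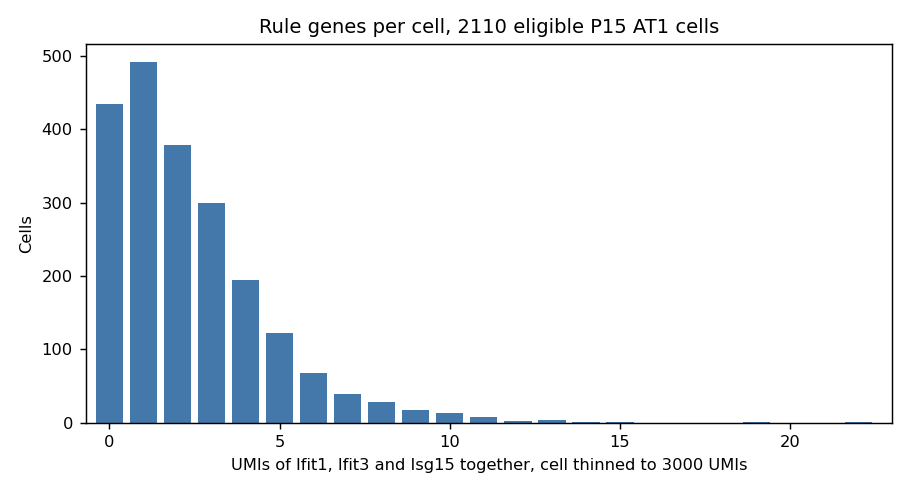
Number of eligible P15 AT1 cells (bars, vertical axis) by the UMIs of Ifit1, Ifit3 and Isg15 together after each cell was thinned at random to 3000 UMIs (horizontal axis). There are 435 cells at 0 UMIs, 492 at 1 UMI and fewer at each further step up to 12 UMIs, and 1 cell reaches 22 UMIs.

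With every eligible cell thinned to 3000 UMIs, the variance of the sum of the rule genes over cells was 2.29 times its mean, and the ratio was 1.70 for Ifit1, 1.73 for Ifit3 and 2.30 for Isg15. A count with no spread between cells beyond sampling has a ratio near 1. Usp18 had a ratio of 1.08 at a mean of 0.26 UMIs per cell, and Xaf1 had 1.10 at a mean of 0.29. The AT1 genes Igfbp2 and Ager had 4.85 and 5.35, at means of 5.34 and 105.8. At the same relative spread between cells this ratio is larger for a gene with a higher mean. The ratios therefore do not rank genes of unlike level by how much they vary between cells. The rule genes were also found together. Isg15 had a UMI in 38.1% (33.8 to 42.6%) of thinned cells with a UMI of Ifit1 and in 18.9% (17 to 20.9%) of cells without one. For Ifit3 the shares were 77.1% (73.1 to 80.8%) of cells with Ifit1 and 67.9% (65.6 to 70.2%) of cells without it.

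Depth, RNA make-up and markers of other cell types were read beside the classes. The median UMI count was 5790 in interferon-high cells, 5792.5 in the cells between and 4634 in interferon-zero cells, and the median number of genes detected was 2289.5 in high, 2261.5 in between and 1949 in zero cells. The median share of ribosomal protein UMIs was 6.24% in interferon-high cells, 7.02% in the cells between and 7.80% in interferon-zero cells, and the median mitochondrial share was 2.70% in high, 2.67% in between and 2.91% in zero cells. The part of these differences in the ratios below was not tested, except where values within a range of depth are given. All 30 AT1 markers were detected in every class, with a median per cell of 28 in high, 28 in between and 27 in zero cells. Ager of this list set which cells were eligible, and Hopx and Pdpn were part of the gate. The AT1 markers are therefore a description of the classes and do not test the name AT1. The 11 listed endothelial markers summed to 21.0 CPM in interferon-high cells, 18.2 CPM in the cells between and 64.2 CPM in interferon-zero cells. The 13 fibroblast and mural markers summed to 39.0 CPM in high, 83.4 CPM in between and 37.2 CPM in zero cells, and the 17 immune markers to 192 CPM in high, 207 CPM in between and 184 CPM in zero cells, of which Csf1r alone gave 177 CPM in high, 184 CPM in between and 175 CPM in zero cells. Ptprc, which codes for the CD45 of the gate, was at 0 in high and zero cells, and so were Laptm5 and Marco. Emcn and Lyve1 of the endothelial list and Pdgfra and Cspg4 of the fibroblast list were at 0 in high and zero cells too. In all, immune markers at 0 numbered 3 in high, 1 in between and 9 in zero cells. Endothelial markers at 0 were 2 in high, 1 in between and 4 in zero cells, and fibroblast and mural markers 3, 0 and 3. The classes held unlike totals of UMIs, 2566910 in high, 9064606 in between and 1075548 in zero cells. Cells with 3 or more markers of any of these 3 lists were at most 0.545% of a class. Markers of other epithelial cells were more common. Cells with 3 or more of 19 AT2 markers were 27.7% of high, 31.4% of between and 27.3% of zero cells. For 11 club and ciliated cell markers the shares were 8.77% of high, 10.8% of between and 9.09% of zero cells. Barcodes shared with the other libraries numbered 15 with P3, 6 with P60 and 9 with the AT2 library.

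Free RNA in the droplets was read from Scgb1a1, the main secretory product of club cells of the airway, which AT1 cells should lack. After thinning, 55.7% of interferon-high cells had a UMI of it, against 56.5% of the cells between and 53.2% of interferon-zero cells, and its level was 266 CPM in high, 279 CPM in between and 262 CPM in zero cells. For the rule genes a guide is the 199 cells under the Ager minimum, which had a median of 5377 UMIs and 52305 CPM of Scgb1a1. Of these, 16.1% (11.3 to 21.9%) had a UMI of Ifit3 after thinning, against 97.2% of interferon-high cells and 72.7% of the cells between. The shares for Ifit1 were 8.54% under the Ager minimum, 49.1% in interferon-high cells and 18.6% in the cells between. Isg15 had a UMI in 14.1% (9.56 to 19.7%) of cells under the Ager minimum, 53.8% (48.9 to 58.6%) of interferon-high cells and 18.0% (16.1 to 20%) of the cells between. The intervals of the cells between and the cells under the Ager minimum overlap for Isg15, and its level was 80.4 CPM in the cells between and 92.1 CPM under the Ager minimum. How much of the rule genes' UMIs was free RNA in any class was not tested.

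The question the classes allow is which other genes go with the rule genes. Leaving those 3 out, 7506 genes had at least 10 CPM over all eligible cells. Of these, 95 (1.27%) were at least 2-fold higher in interferon-high than in interferon-zero cells and 58 (0.773%) at least 2-fold lower, and the median log2 ratio was 0.02. The rule made this contrast, and most of the 95 genes rest on few molecules: 82 had under 20 UMIs in the 220 interferon-zero cells. Of the other 13, which had 20 or more, 7 were on the interferon lists, namely Rtp4, Bst2, Xaf1, Usp18, Ube2l6, Sp100 and Ifit3b. The remaining 6 were Pttg1, Btg3, Dirc2, Ppp1r16b, Pgd and Sema3f. The last 4 are named because the count is small and were picked after their values were seen.

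**Figure D2:**
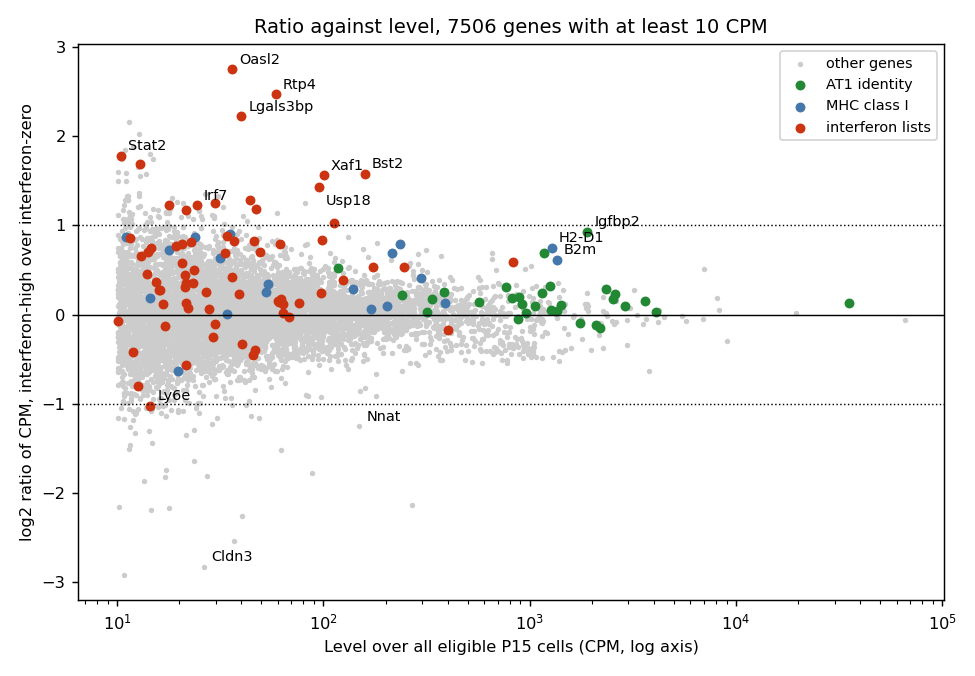
Each point is 1 of 7506 genes, with its level over all eligible P15 cells in CPM (horizontal log axis) and its log2 ratio of CPM in interferon-high over interferon-zero cells (vertical axis), dotted lines at 2-fold, and colours for interferon lists (red), MHC class I (blue), AT1 genes (green) and all others (grey). Oasl2, Rtp4 and Lgals3bp lie highest among genes above 20 CPM, Bst2, Xaf1 and Usp18 stand above the other genes of their level, and Cldn3 and Nnat lie below.

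Interferon effectors, the antiviral proteins and other products induced by interferon, are a list of 97 genes, of which 82 were listed in the file and 41 passed the level of 10 CPM. Of the 41, 35 were above a ratio of 1, beside 3923 of all 7506 genes, and the median log2 ratio was 0.59. By 2-fold or more, 11 were higher and 1 was lower. Since the rule used this contrast, nothing further is read from the count beside the 1.27% of all genes.

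Oasl2, a relative of the oligoadenylate synthetases that sense double-stranded RNA, had 87.7 CPM in interferon-high cells, 24.0 CPM in the cells between and 13.0 CPM in interferon-zero cells, a ratio of 6.73 (3.93 to 12.5) for high over zero. Rtp4, an interferon-induced protein of the receptor transporter family, had 118 CPM in high, 46.3 CPM in between and 21.4 CPM in zero cells, a ratio of 5.54 (3.62 to 8.87). Lgals3bp, a secreted glycoprotein that binds galectins, had 78.3 CPM in high, 31.9 CPM in between and 16.7 CPM in zero cells, a ratio of 4.68 (2.89 to 8.06). These genes were highest in interferon-high cells, with the cells between nearer to interferon-zero cells. The Oasl2 window printed above held no match of the motif, and Rtp4 had no window in the table.

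Bst2 codes for tetherin, which holds new virus particles on the cell surface, and had 280 CPM in interferon-high cells, 132 CPM in the cells between and 93.9 CPM in interferon-zero cells, a ratio of 2.99 (2.42 to 3.72). Among the effectors at least 2-fold higher it had the most UMIs, 720 in interferon-high cells and 101 in interferon-zero cells. After thinning, 53.6% of interferon-high cells had a UMI of Bst2, against 30.2% of the cells between and 26.8% of interferon-zero cells, and 32.2% of the cells under the Ager minimum had one. The level of Bst2 under the Ager minimum was 303 CPM, above the 280 CPM of interferon-high cells. Xaf1, a partner of the cell death inhibitor XIAP, had 165 CPM in high, 87.3 CPM in between and 55.8 CPM in zero cells, a ratio of 2.95 (2.25 to 3.94). Ube2l6, the enzyme that passes Isg15 to its targets, had 70.5 CPM in high, 38.5 CPM in between and 28.8 CPM in zero cells, a ratio of 2.45 (1.66 to 3.71).

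Other effectors at 2-fold or more were Sp100, a protein of nuclear bodies, at 2.27 (1.58 to 3.34), Rnf213, a large ubiquitin ligase, at 2.26 (1.29 to 4.23), and Trim12c at 2.37 (1.43 to 4.17). Ifitm3, a membrane protein that hinders virus entry, had a ratio of 3.23 (1.47 to 8.42) from 54 UMIs in high and 7 UMIs in zero cells. Ifit3b, the neighbour and close copy of Ifit3 at chr19:34607970-34613401, had 153 CPM in high, 106 CPM in between and 75.3 CPM in zero cells, a ratio of 2.03 (1.60 to 2.62). Reads of Ifit3 and Ifit3b, and of Trim12a and Trim12c, can be split between near-identical genes, so these values are uncertain. More abundant effectors had smaller ratios: Ifi27, a small mitochondrial protein, had 986 CPM in high, 805 CPM in between and 653 CPM in zero cells and a ratio of 1.51 (1.39 to 1.64), Shisa5 had 283 CPM in high, 242 CPM in between and 195 CPM in zero cells and 1.45 (1.24 to 1.70), and Ifi35 had 132 CPM in high, 91.0 CPM in between and 74.4 CPM in zero cells and 1.78 (1.39 to 2.30).

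Some effectors did not follow the score. Ifit2, a family member of Ifit1 and Ifit3, had 31.2 CPM in interferon-high cells, 28.9 CPM in the cells between and 33.5 CPM in interferon-zero cells, a ratio of 0.93 (0.62 to 1.42). Isg20, a nuclease, had 72.9 CPM in high, 66.2 CPM in between and 74.4 CPM in zero cells, a ratio of 0.98 (0.75 to 1.29). Samhd1, which destroys nucleotides needed to copy viral DNA, had 393 CPM in high, 401 CPM in between and 443 CPM in zero cells, a ratio of 0.89 (0.80 to 0.99). Ifitm2 had 41.3 CPM in high, 45.5 CPM in between and 56.7 CPM in zero cells, a ratio of 0.73 (0.53 to 1.01). Ly6e was the 1 effector at least 2-fold lower, with 15.6 CPM in interferon-high and 31.6 CPM in interferon-zero cells, but 12.1 CPM in the cells between, and 55.9% of its 34 UMIs in interferon-zero cells came from 1 cell.

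**Figure D3:**
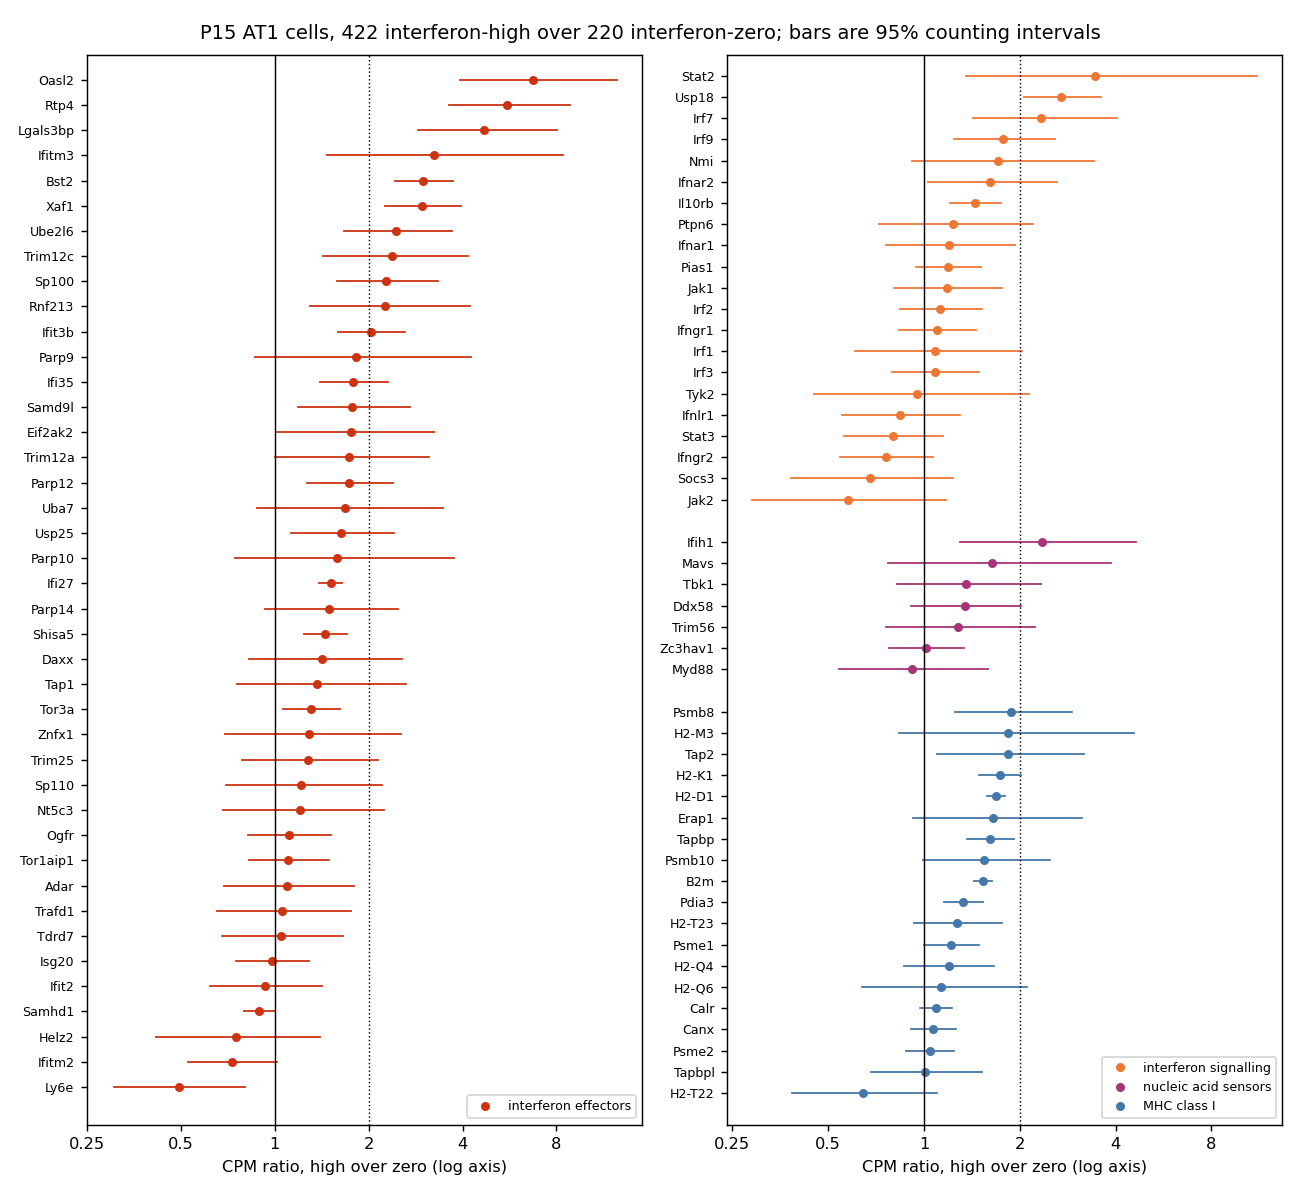
Ratio of CPM in interferon-high over interferon-zero cells (horizontal log axis) for genes that passed 10 CPM among interferon effectors (left), signalling genes, nucleic acid sensors and MHC class I genes (right), with 95% counting intervals. Oasl2 leads the effectors at 6.73, and no MHC class I gene reaches 2. Stat2 has the largest ratio of the signalling genes, 3.44, but had 5 UMIs in zero cells and passed the level only through the high cells.

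Among the 25 signalling genes, 22 passed, with a median log2 ratio of 0.24. By 2-fold or more, 3 were higher and 0 lower, beside 1.27% and 0.773% of all genes. The 3 include Stat2, which passed the level only through the high cells, so nothing further is read from this count. Usp18, the protease that removes Isg15 from proteins and restrains the interferon receptor, had 153 CPM in interferon-high cells, 83.1 CPM in the cells between and 56.7 CPM in interferon-zero cells, a ratio of 2.70 (2.06 to 3.60). Irf7, a factor that interferon induces and that drives interferon genes, had 41.3 CPM in high, 20.3 CPM in between and 17.7 CPM in zero cells, a ratio of 2.34 (1.43 to 4.04). Stat2 had 16 CPM in high, 9.60 CPM in between and 4.65 CPM in zero cells, a ratio of 3.44 (1.36 to 11.1) from 41 UMIs in high and 5 UMIs in zero cells. It passed the level, with 10.5 CPM over all eligible cells, only through the high cells. Irf9, the DNA-binding partner in the complex, had 64.3 CPM in high, 42.5 CPM in between and 36.3 CPM in zero cells, a ratio of 1.77 (1.24 to 2.58).

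Receptor genes gave ratios whose intervals mostly held 1. Ifnar1 and Ifnar2, the chains of the type I receptor, had ratios of 1.19 (0.76 to 1.93) and 1.61 (1.03 to 2.61). Ifnlr1, a chain of the type III receptor, had 0.84 (0.55 to 1.3), and its partner Il10rb had 205 CPM in interferon-high and 142 CPM in interferon-zero cells, a ratio of 1.44 (1.2 to 1.74). Ifngr1 and Ifngr2 of the interferon gamma receptor had 1.10 (0.84 to 1.46) and 0.76 (0.54 to 1.07). Jak2 and Socs3 had 0.58 (0.29 to 1.17) and 0.68 (0.38 to 1.23). None of the 15 interferon genes on the list was listed in the file. Of the 7 sensors that passed, Ifih1, which recognises long double-stranded RNA, had 28.4 CPM in interferon-high cells, 15.4 CPM in the cells between and 12.1 CPM in interferon-zero cells, a ratio of 2.35 (1.29 to 4.63), and Ddx58, the sensor RIG-I, had 1.34 (0.91 to 2.02).

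MHC class I genes, which load and show peptides at the cell surface, were mostly higher, with a smaller median ratio than the effectors. Of 20 that passed, 19 were above 1, beside 3923 of all 7506 genes, and the median log2 ratio was 0.43. None reached 2-fold. At 1.5-fold or more, 9 were higher, beside 6.13% of all genes, and 1 was lower, beside 4.33% of all genes. At the same size 21 of the 41 effectors were higher and 1 was lower. The 9 genes became 0 without Isg15 in the rule, 4 without Ifit1, 4 with classes set on a random 0.5 of the UMIs and 3 against all other eligible cells. H2-D1 had 1712 CPM in interferon-high cells, 1187 CPM in the cells between and 1017 CPM in interferon-zero cells, a ratio of 1.68 (1.57 to 1.80). B2m, the light chain, had 1727 CPM in high, 1270 CPM in between and 1129 CPM in zero cells, a ratio of 1.53 (1.44 to 1.63). H2-K1 had 333 CPM in high, 214 CPM in between and 192 CPM in zero cells, a ratio of 1.73 (1.48 to 2.02). Psmb8, a subunit of the immunoproteasome, had a ratio of 1.88 (1.25 to 2.91), and Tapbp, which helps load peptides, 1.61 (1.36 to 1.92). Calr and Canx, chaperones of the same compartment that serve many proteins, had 1.09 (0.97 to 1.23) and 1.07 (0.91 to 1.26). H2 genes are alike in sequence, so reads can be split between them. Per cell, B2m had a median of 15.7 per 10000 UMIs in interferon-high cells (10th to 90th percentile 7.0 to 30.5), 11.5 in the cells between (4.1 to 23.3) and 10.3 in interferon-zero cells (2.7 to 21.5), so the cells of the classes overlapped widely.

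Targets of NF-kB, the factor of many inflammatory signals, had a median log2 ratio of 0.17 over 10 genes that passed. Of the 10, 7 were above 1 and 3 below, beside 3923 and 3583 of all 7506 genes. Icam1 had 1431 CPM in high, 1392 CPM in between and 1359 CPM in zero cells, a ratio of 1.05 (0.99 to 1.12). Nfkbia had 0.94 (0.85 to 1.03). Sod2 and Traf1 were higher, at 1.299 (1.105 to 1.533) and 1.27 (1.04 to 1.56). Tnfaip3 had the largest ratio, 2.04 (0.94 to 5.06), from 39 UMIs in high and 8 UMIs in zero cells. Of 24 chemokine and cytokine genes only Cxcl16 passed, at 1.23 (1.09 to 1.38). The MHC class II chain Cd74 had 1.17 (1.00 to 1.38).

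The comparison of interferon-high cells with the 1468 cells between sets aside the shallower interferon-zero cells, since both classes had nearly the same median depth. Here 6 of 7506 genes (0.0799%) were at least 2-fold higher and 14 (0.187%) at least 2-fold lower. Oasl2 had 3.64 (3.01 to 4.41), Rtp4 2.56 (2.20 to 2.97), Lgals3bp 2.46 (2.04 to 2.95), Bst2 2.13 (1.94 to 2.34), Irf7 2.03 (1.59 to 2.60) and Porcn, an enzyme that attaches a lipid to Wnt proteins, 2.00 (1.49 to 2.67), which is named after its value was seen. At 1.5-fold, 12 of 41 effectors were higher and 0 lower, beside 0.773% of all genes higher and 1.39% lower. Of the 6 genes, 5 were on the interferon effector and signalling lists. The score also used this contrast, so the count is a description.

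Along the score, from interferon-zero cells through 3 equal parts of the cells between to the lower and upper parts of interferon-high cells, most of these genes were higher in each step or stayed level at the low end. Bst2 had 93.9, 92.4, 124, 178, 246 and 315 CPM. Oasl2 had 13.0, 12.9, 25.8, 33.4, 68.3 and 107 CPM, and Rtp4 had 21.4, 28.7, 46.0, 64.2, 103 and 134 CPM. For these the largest step in CPM lay at the high end of the score. Irf7 had 17.7, 14.9, 17.1, 28.8, 25.9 and 56.5 CPM, and was highest in the last bin. H2-D1 had 1017, 1046, 1185, 1330, 1582 and 1839 CPM.

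**Figure D4:**
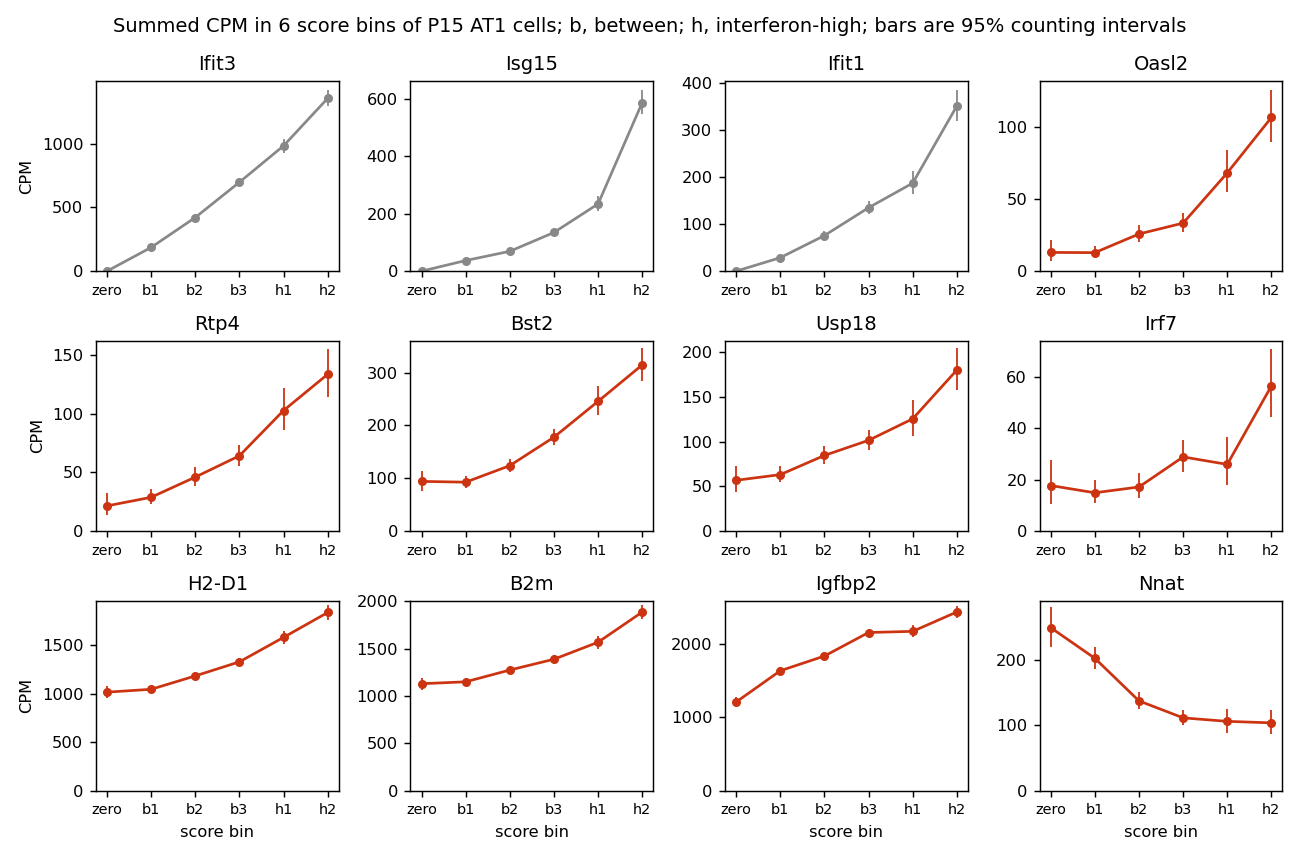
Summed CPM (vertical axes) in 6 bins of the score, low to high, where zero is the interferon-zero cells, b1 to b3 are 3 parts of the cells between and h1 and h2 are the lower and upper parts of interferon-high cells, with 95% counting intervals. Grey panels show the rule genes, which set the bins; Bst2 has 93.9 CPM at zero and 315 CPM at h2, and Igfbp2 has 1207 CPM at zero, 1633 CPM at b1 and 2433 CPM at h2.

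Values within ranges of depth varied by gene. In cells of 3000 to under 5000 UMIs, 151 high cells gave 292 CPM of Bst2 and 128 zero cells 103 CPM, a ratio of 2.84 (2.07 to 3.96). From 5000 to under 8000 UMIs, 194 high cells gave 253 CPM and 82 zero cells 83.2 CPM, a ratio of 3.04 (2.19 to 4.33). H2-D1 had 1.68 (1.5 to 1.87) in the lower range and 1.61 (1.46 to 1.78) in the upper one, and Usp18 had 2.81 (1.78 to 4.58) and 2.40 (1.63 to 3.63). Rtp4 was 5.14 (2.91 to 9.79) and 9.21 (3.83 to 28.9), Oasl2 4.18 (2.02 to 9.71) and 9.29 (3.87 to 29.2), and Lgals3bp 6.24 (2.97 to 15.1) and 2.91 (1.49 to 6.32). Btg3 was 1.94 (1.25 to 3.07) in the lower range and 3.19 (2.00 to 5.37) in the upper one. Fos was not alike in both ranges, at 0.52 (0.44 to 0.62) and 1.05 (0.91 to 1.22). From 8000 UMIs, 77 high and 10 zero cells remained, and there Bst2 had 3.08 (1.59 to 6.81), H2-D1 1.63 (1.33 to 2.02), H2-K1 1.2 (0.81 to 1.86) and Cyp2b10 1.01 (0.82 to 1.25).

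AT1 genes were mostly a little higher in interferon-high cells, with 26 of 30 above 1, beside 3923 of all 7506 genes. Their median log2 ratio was 0.14. Ager had 36517 CPM in interferon-high cells, 35196 CPM in the cells between and 33305 CPM in interferon-zero cells, a ratio of 1.10 (1.08 to 1.11), and was also part of the rule for eligible cells. Igfbp2, an insulin-like growth factor binding protein that marks mature AT1 cells, stood apart with 2302 CPM in high, 1874 CPM in between and 1207 CPM in zero cells, a ratio of 1.91 (1.80 to 2.03). Its median per cell was 17.4 per 10000 UMIs in interferon-high cells (10th to 90th percentile 4.1 to 45.1), 13.8 in the cells between (1.5 to 39.0) and 7.4 in interferon-zero cells (0 to 30.5). Cyp2b10, a cytochrome P450, had 1406 CPM in high, 1151 CPM in between and 870 CPM in zero cells, a ratio of 1.62 (1.5 to 1.74). That direction depends on the rule, since the ratio was 0.80 with Ifit3 left out of it, and it was 1.01 (0.82 to 1.25) in cells of 8000 UMIs or more. Hopx, the homeodomain factor behind the red reporter, had 1.25 (1.17 to 1.34), Aqp5, a water channel, 1.11 (1.07 to 1.15), and Pdpn, the surface protein of the gate, 1.04 (0.97 to 1.11).

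Immediate early genes, which respond within minutes to stimulation or tissue digestion, were mostly lower. Of 18, 17 were below 1, beside 3583 of all 7506 genes, and the median log2 ratio was -0.33. Klf2 had 220 CPM in interferon-high cells, 296 CPM in the cells between and 321 CPM in interferon-zero cells, a ratio of 0.69 (0.60 to 0.79). Its ratio was 0.82 (0.65 to 1.05) at 3000 to under 5000 UMIs and 0.64 (0.52 to 0.77) at 5000 to under 8000 UMIs. Jun had 370 CPM in high, 424 CPM in between and 470 CPM in zero cells, a ratio of 0.79 (0.70 to 0.88). Nr4a1 had 11.7 CPM in high, 16.2 CPM in between and 39.0 CPM in zero cells, a ratio of 0.30 (0.18 to 0.49). Ier3 was the member above 1, with 1138 CPM in high, 915 CPM in between and 798 CPM in zero cells, a ratio of 1.43 (1.32 to 1.54). Of the YAP and TAZ targets, Ctgf had 872 CPM in high, 613 CPM in between and 542 CPM in zero cells, a ratio of 1.61 (1.47 to 1.76), while Cyr61, which is often induced with it, had 930 CPM in high, 1015 CPM in between and 1052 CPM in zero cells, a ratio of 0.88 (0.82 to 0.95). Btg3, an antiproliferative gene, had 119 CPM in high, 74.7 CPM in between and 50.2 CPM in zero cells, a ratio of 2.37 (1.77 to 3.23). Smap2 had 2.54 (1.44 to 4.85), Pttg1, the securin of cell division, 2.51 (1.58 to 4.20), and the sugar transporter Slc2a12 2.37 (1.27 to 4.82).

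Genes lower in interferon-high cells included surfactant genes, Cldn3, Nnat and Glul. Of the 9 genes of the AT2 list that passed, 7 were below 1 and 2 above, beside 3583 and 3923 of all 7506 genes. Lpcat1 and Abca3 of that list had ratios of 0.92 (0.77 to 1.10) and 0.83 (0.67 to 1.04). Sftpc, the surfactant protein that marks AT2 cells, had 110 CPM in interferon-high cells, 288 CPM in the cells between and 483 CPM in interferon-zero cells, but 1 interferon-zero cell held 62.6% of that class's UMIs of Sftpc, Sftpb, Sftpa1 and Sftpd. Without the 5 eligible cells that had 50 or more such UMIs, a step chosen after seeing the data, Sftpc had 110 CPM in high, 106 CPM in between and 124 CPM in zero cells. Sftpb then had 11.7 CPM in high and 12.2 CPM in zero cells, and Sftpa1 12.5 CPM in high and 10.3 CPM in zero cells. Sftpd and Napsa remained apart without the 5 cells. Sftpd, a surfactant protein of innate defence, had 60.4 CPM in high, 77.9 CPM in between and 160 CPM in zero cells. With Ifit3 left out of the rule, the log2 ratio of Sftpd was 0.21. Without the 5 cells Napsa, a protease that processes surfactant proteins, had 16.8 CPM in high, 23.7 CPM in between and 47.7 CPM in zero cells. In the same setting Cldn3, a tight junction claudin, had 12.5 CPM in interferon-high cells, 22.2 CPM in the cells between and 82.3 CPM in interferon-zero cells, Nnat, the imprinted gene neuronatin, 105 CPM in high, 151 CPM in between and 245 CPM in zero cells, and Glul, glutamine synthetase, 31.2 CPM in high, 67.5 CPM in between and 87.0 CPM in zero cells. In the P3 AT1 library Cldn3 had 649 CPM in high and 612 CPM in zero cells under the same rule, and in the P60 AT1 library 1.58 CPM in high and 2.00 CPM in zero cells.

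Lists of genes that differed with age in AT1 cells were made from the other AT1 libraries. Of 327 genes of 50 CPM or more that were at least 2-fold lower in the P60 than in the P3 AT1 library and passed here, 23.9% were above 1 in interferon-high over interferon-zero cells, with a median ratio of 0.82. Of 434 genes at least 2-fold higher at P60, 64.1% were above 1, with a median ratio of 1.06. Over all 7417 genes with values in the 3 libraries, 51.9% were above 1 and the median ratio was 1.01. Without ribosomal protein, mitochondrial and haemoglobin genes, 31.7% of 240 genes lower at P60 were above 1. Whether cell maturity enters the other ratios was not tested.

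The rule was applied in each of the other libraries, which did not choose the P15 cells. In the AT2 library, where Sftpc stands in place of Ager, only 41 of the eligible cells (2.29%) had a UMI of any rule gene, so its high class is all of these, 1750 cells are zero and 0 lie between. After thinning to 3000 UMIs, any rule gene had a UMI in 17.2% (15.8 to 18.6%) of 2891 eligible AT1 cells at P3, 78.2% (76.4 to 79.9%) of 2110 at P15 and 49.0% (45.7 to 52.2%) of 958 at P60. In the AT2 library it was 1.12% (0.683 to 1.72%) of 1791 cells, and Ifit1 was listed at 0. The highest-scoring 20% of the AT1 libraries thus meant different levels. Its lowest score was 1.39 per 10000 UMIs at P3, 12.2 at P15 and 4.27 at P60, and Ifit3 in the high class had 202 CPM at P3, 1169 CPM at P15 and 454 CPM at P60. At P3 the 578 high cells held 861 UMIs of Ifit3, 135 of Isg15 and 78 of Ifit1. The median UMI count at P3 was 6632.5 in high, 9593 in between and 7164.5 in zero cells. At P60 it was 6321 in high, 7171 in between and 5013 in zero cells. The part of depth in the ratios of these libraries was not tested.

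At P60, 5 of 48 effectors that passed were at least 2-fold higher in the 192 high than in the 281 zero cells, beside 0.711% of all genes, with a median log2 ratio of 0.24. At P3, 0 of 27 effectors were at least 2-fold higher in 578 high over 1912 zero cells, beside 0.0133% of all genes, with a median of 0.09. In the 41 high over the 1750 zero cells of the AT2 library 1 of 24 effectors was that much higher, beside 2.48% of all genes. Effectors lower by 2-fold or more numbered 0 at P3, 1 at P60 and 1 in the AT2 library, beside 0.0798%, 0.812% and 9.14% of all genes. MHC class I genes at 1.5-fold higher or more were 0 of 18 at P3, 2 of 20 at P60 and 3 of 17 in the AT2 library, beside 0.173%, 5.34% and 11% of all genes. At 1.5-fold lower or more they were 0 at P3, 0 at P60 and 2 in the AT2 library, beside 0.425%, 4.48% and 17.5% of all genes. Bst2 had ratios of 0.94 (0.80 to 1.11) at P3, 2.99 (2.42 to 3.72) at P15 and 1.29 (1.04 to 1.60) at P60. In that order Oasl2 had 1.33 (0.68 to 2.46), 6.73 (3.93 to 12.5) and 1.39 (0.82 to 2.39), and Usp18 had 1.15 (0.92 to 1.44), 2.70 (2.06 to 3.60) and 1.28 (0.89 to 1.85). Oasl2 and Usp18 were above 1 at every age, with intervals that held 1 at P3 and P60. For Rtp4, Irf7 and Ifit3b the intervals lay above 1 at every age. Rtp4 had 2.66 (1.69 to 4.17), 5.54 (3.62 to 8.87) and 5.03 (1.64 to 20.5). Irf7 had 1.73 (1.01 to 2.87), 2.34 (1.43 to 4.04) and 3.35 (1.26 to 10.4). Rtp4 and Irf7 were under the level of 10 CPM at P3 and P60 and rest on few UMIs there, as was Oasl2 at P3. Ifit3b, whose reads may be shared with Ifit3, had 1.29 (1.06 to 1.56), 2.03 (1.60 to 2.62) and 2.17 (1.68 to 2.81). H2-D1 had 1.06 (1.01 to 1.11), 1.68 (1.57 to 1.80) and 1.06 (0.96 to 1.17). Igfbp2 had 0.75 (0.71 to 0.78), 1.91 (1.80 to 2.03) and 1.10 (1.04 to 1.16). With 1 library per age, age and library cannot be told apart, and the differences between the ratios were not tested.

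**Figure D5:**
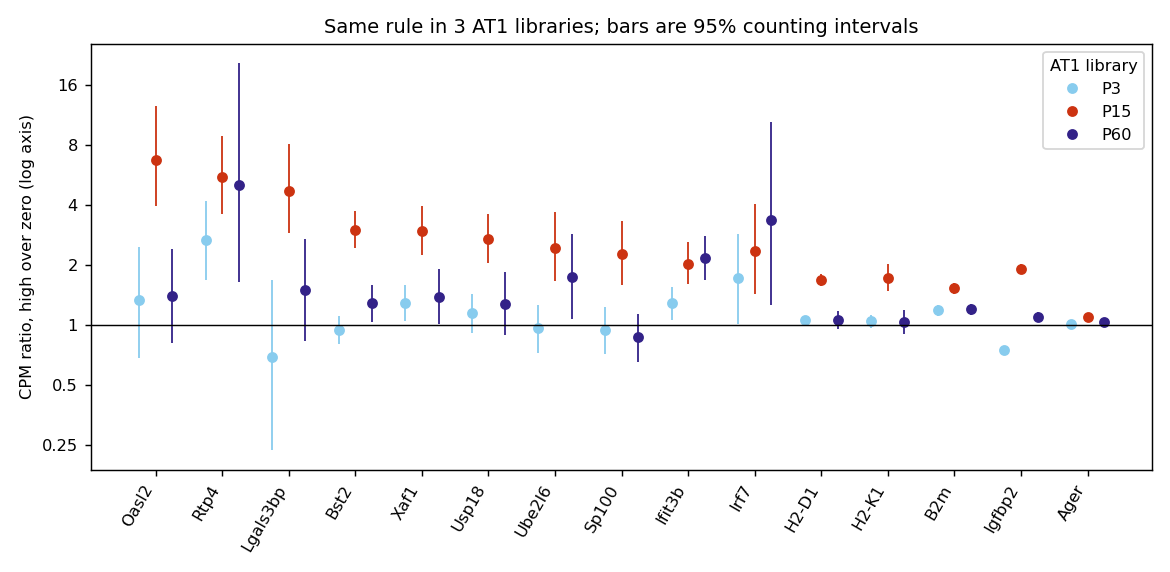
Ratio of CPM in high over zero cells (vertical log axis) for 15 genes in the AT1 libraries at P3, P15 and P60, with classes set by the same rule in each and 95% counting intervals. Bst2, Usp18, H2-D1 and Igfbp2 have their highest ratio at P15, while Rtp4, Ube2l6, Ifit3b and Irf7 have P15 and P60 intervals that overlap.

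Promoters of the other genes were searched for the same letters. Of the 11 effectors at least 2-fold higher, 10 had a window, and 3 of the 10 held GAAANNGAAA, namely Bst2, Ifit3b and Trim12c. Of 24 effectors under 2-fold with a window, 2 held it, Ifitm2 and Tdrd7, against 3.46% of all genes. Stat2 held 1 match 212 bases before its start. Oasl2, Xaf1 and Lgals3bp held none in 250 bases, which says only that these letters are not in that window. Among AT1 genes GAAANNGAAA was in 1 of 27 with a window, Vegfa. The shorter form AANNGAAA was in 6 of the 10 effectors at least 2-fold higher and 7 of the 24 under 2-fold. It was in 4 of the 27 AT1 genes, against 23.9% of all genes. Xaf1 and Lgals3bp each held 1 match of the shorter form, and Oasl2 held 0.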

How the data were processed

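The 4 deposited tables give the natural log of 1 plus a gene's UMIs per 10000 UMIs of the cell, a scaling read from the values since no header states it. Cell Ranger 1.3.1, Seurat 2.0.0 and the builds mm10 and hg19 are named per the submitters' processing notes, without saying what hg19 was used for. Dividing unlogged values by each cell's lowest one gave whole UMIs for 100% of values above 0 within 0.05, and these UMIs were used throughout. The P15 library held 15401939 UMIs in 2940 cells, with 1434 to 24119 UMIs per cell, and the other libraries 7276458 to 26536894 UMIs.

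UMIs were summed by class and given as CPM. Ratios have exact conditional Poisson intervals and shares exact Clopper-Pearson intervals at 95%. PCR copies are collapsed by UMI, and the intervals cover counting error only. Each group is 1 library, so no test, p-value or standard error is given. Genes needed 10 CPM over all eligible cells, and counts by size used 2-fold, and 1.5-fold for MHC class I genes. Medians of log2 ratios set counts under 3 to 3 counts. Shares of cells were read after thinning each cell to 3000 UMIs. Doublets were not called here, and none of the classes was cleaned of them.

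Named genes are the 12 largest ratios in each direction from 20 CPM, without ribosomal protein, mitochondrial, haemoglobin and provisional symbols, each interferon effector, signalling or sensor gene at least 2-fold apart, and up to 4 of the most abundant members of each other list. Members quoted beside them illustrate the lists. The members and lists were chosen with earlier results of these data known. Sequences come from the RefSeq promoter table (GRCm38.p6) and gene positions from GENCODE for mm10. Alternatives changed the depth, Ager and score limits, the comparison class, the level, the scaling, the thinning and the rule genes. Scripts were checked on simulated counts and ran in Python 3.11.15 with numpy 2.4.6, scipy 1.17.1, pandas 2.3.3 and matplotlib 3.10.9. 1 signalling gene is counted in its list and not reported here by name.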

Additional observations from a re-analysis of the deposited data

Results flagged for a closer look

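Ratios of high over zero cells lay on opposite sides of 1 in 2 libraries, with counting intervals that both left out 1, for 15 of the 92 genes read in every library. None of these differences was tested, since each group is 1 library.

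Against the P3 AT1 library, Cldn3 had 0.14 (0.09 to 0.21) at P15 and 1.06 (1.02 to 1.11) at P3, Rnaset2b 0.32 (0.18 to 0.57) at P15 and 1.39 (1.13 to 1.70) at P3, and Glul 0.35 (0.26 to 0.47) at P15 and 1.33 (1.05 to 1.67) at P3. Igfbp2 had 1.91 (1.80 to 2.03) at P15 and 0.75 (0.71 to 0.78) at P3. Ctgf had 1.61 (1.47 to 1.76) at P15, 0.81 (0.76 to 0.85) at P3 and 0.76 (0.68 to 0.87) at P60. Hsp90b1, a chaperone, had 1.17 (1.03 to 1.33) at P15 and 0.94 (0.893 to 0.996) at P3, and the nuclear RNA Malat1 had 0.96 (0.95 to 0.97) at P15 and 1.12 (1.11 to 1.12) at P3.

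Against the P60 AT1 library, Ly6e had 0.49 (0.30 to 0.80) at P15 and 1.80 (1.01 to 3.29) at P60, and Rnf213 had 2.26 (1.29 to 4.23) at P15 and 0.47 (0.22 to 0.95) at P60. Both rest on few UMIs. Cd74 had 1.17 (1.00 to 1.38) at P15 and 0.76 (0.58 to 0.99) at P60, Tppp3 0.90 (0.85 to 0.96) at P15 and 1.3 (1.21 to 1.39) at P60, Jund 0.86 (0.80 to 0.92) at P15 and 1.11 (1.03 to 1.2) at P60, and Hspa8 0.87 (0.81 to 0.93) at P15 and 1.38 (1.23 to 1.55) at P60.

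Against the AT2 library at P60, where the high class is every cell with a UMI of a rule gene, Sftpd had 0.29 (0.24 to 0.36) in P15 AT1 cells and 1.07 (1.01 to 1.12) in AT2 cells, and Nnat had 0.42 (0.35 to 0.50) in P15 AT1 cells and 1.76 (1.19 to 2.51) in AT2 cells.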

How the results depend on the processing

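No paired analysis was possible because each group has 1 library. Under 21 alternative settings, 1478 of 1722 values of 82 named genes lay inside their counting interval, 227 lay outside it and 17 changed direction. Bst2 stayed between 2.20 and 3.35, Usp18 between 1.91 and 3.18, Rtp4 between 2.71 and 7.17, H2-D1 between 1.46 and 1.81 and Igfbp2 between 1.28 and 2.92. Cyp2b10 lay between 0.80, with Ifit3 left out of the rule, and 2.39. The cause of these changes was not tested.

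The 95 genes at least 2-fold higher became 248 from 5000 UMIs per cell, 273 with Ager at the median or above, 6 against all other eligible cells, 188 after thinning with the classes kept, 246 from 5 CPM, 25 from 25 CPM, and 63, 29 and 58 without Ifit1, Ifit3 and Isg15 in the rule. The 58 genes at least 2-fold lower became 112 from 5000 UMIs, 464 with no Ager minimum, 141 with Ager at the median or above, 114 and 34 with the top 10% and 30%, 16 against all other eligible cells, 138 after thinning with the classes kept, 97 when classes were set on a random 0.5 of the UMIs of each cell and values read in the rest, 136 from 5 CPM, 15 from 25 CPM and 24 without Ifit3. The 11 effectors became 4 against all other eligible cells, 7 with classes set on a random part of the UMIs, 18 from 5 CPM and 6 without Isg15. The 9 MHC class I genes became 5 with no Ager minimum, 3 against all other eligible cells, 4 with classes set on a random part, 4 without Ifit1 and 0 without Isg15. The 422 high cells became 265 from 5000 UMIs, 249 with Ager at the median or above and 211 at 10%. The 220 zero cells became 92 from 5000 UMIs, 345 with no Ager minimum, 107 with Ager at the median or above, 1688 as all other eligible cells, 435 when thinned first, 456 on a random part of the UMIs and 1053 without Ifit3. In the AT2 library the 1 effector became 2 after thinning.

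Log2 ratios changed sign with no Ager minimum for Pttg1 (-0.045), Ifitm3 (-3.77) and Mfap4 (-7.24), with Ager at the median or above for Sftpb (0.12), Sftpa1 (0.56) and Sftpc (0.21), and against all other eligible cells for Ly6e (0.13) and Mfap4 (-1.08). Mfap4 also changed when thinned first (-1.98), on a random part of the UMIs (-0.14) and without Ifit3 (-0.054), as did Slc2a12 (-0.000675), Sftpd (0.21) and Ly6e (0.88) without Ifit3. Without cells with other markers Sftpb (0.76) and Sftpa1 (0.49) changed, and without the cells rich in surfactant UMIs, a setting chosen after seeing the data, Sftpa1 (0.28).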

Other observations

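Xist, the RNA of the silenced X chromosome in females, had a UMI in 0.237% of interferon-high cells, 0.341% of the cells between and 0.455% of interferon-zero cells at P15. Y-linked genes had one in 50% of interferon-high cells, 50.8% of the cells between and 44.1% of interferon-zero cells. In the P3 library Xist had a UMI in 36.7% of high, 45.4% of between and 40.7% of zero cells under the same rule.

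Other lists gave medians on both sides of that of all genes, which was a log2 ratio of 0.02 in interferon-high over interferon-zero cells. Of all 7506 genes, 3923 were above 1 and 3583 below, and the counts that follow stand beside these. Of 13 chaperone genes that passed, 4 were above 1 and the median log2 ratio was -0.07, and Hspa5, the chief chaperone of the endoplasmic reticulum, had 385 CPM in interferon-high and 308 CPM in interferon-zero cells, a ratio of 1.25 (1.10 to 1.42). Of 13 lysosome genes 9 were above 1, with a median of 0.14, and the protease gene Ctsl had 781 CPM in interferon-high and 615 CPM in interferon-zero cells, a ratio of 1.27 (1.16 to 1.39). Of 10 glucocorticoid response genes 5 were above 1. Of 9 genes of cell death and the p53 response 3 were above 1, and Cdkn1a, an inhibitor of the cell cycle, had 106 CPM in interferon-high, 135 CPM in the cells between and 163 CPM in interferon-zero cells, a ratio of 0.65 (0.54 to 0.79). The imprinted RNA Meg3 had 77.5 CPM in interferon-high and 147 CPM in interferon-zero cells, but 36.7% of its UMIs in interferon-zero cells came from 1 cell. Mesothelial markers passed for 2 genes, and Msln had 426 CPM in interferon-high, 369 CPM in the cells between and 270 CPM in interferon-zero cells, while Krt19 had 831 CPM in interferon-high, 945 CPM in the cells between and 1078 CPM in interferon-zero cells.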
